A study of Rattus norvegicus with 9 samples.

Results

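Genes of calcium transport across kidney tubule cells were followed on whole-kidney arrays: Trpv5, Trpv6, Calb1, S100g, Slc8a1, Atp2b1, Atp2b4, Casr, Vdr and Kl. These 10 genes, carried by 15 probes, were taken by symbol from the 26115 genes and 30367 probes of a rat Agilent array, and they were selected on differences between MSC and NP samples that were already known. Their MSC against NP values are therefore given as a description, with no test. Of the 10 genes, 8 passed, with 10 probes, the filter on low signals. Trpv6 and Atp2b4 did not.

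In the distal convoluted and connecting tubule, calcium enters the cell from the urine through the apical channels TRPV5 and TRPV6, is bound in the cytosol by the calbindins (calbindin-D28k from Calb1 and calbindin-D9k from S100g) and leaves to the blood through the sodium-calcium exchanger NCX1 (Slc8a1) and the plasma membrane calcium pumps PMCA1 (Atp2b1) and PMCA4 (Atp2b4). The calcium-sensing receptor (Casr), the vitamin D receptor (Vdr) and Klotho (Kl), the co-receptor for FGF23, adjust this transport. Active vitamin D is known to raise the channels and both calbindins.

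The NP group (n = 5) held kidneys of Fisher F344 rats taken after 20 min. of warm ischaemia by clamping and never perfused. The MSC group (n = 4) held F344 kidneys after the same ischaemia that were then perfused for 4 hrs at 4°C with Belzer solution, a cold preservation fluid, to which 3000000 mesenchymal stromal cells (MSC) had been added. These cells were grown from bone marrow of Sprague Dawley rats carrying an EGFP transgene, and so differed in strain from the kidney. Kidneys of both groups were stored in RNAlater. The MSC group was thus perfused, kept longer and given cells, while the NP group had none of these, and the 3 cannot be told apart. The treatment label calls the NP kidneys not perfused, whereas their titles describe 4 hrs of perfusion with Belzer solution. The treatment label was used here, as in the methods of the study. Each sample was a separate kidney, taken by left nephrectomy, and age was not given in the sources used here.

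The 9 arrays lay on 2 slides, with 3 NP and 2 MSC samples on slide 1 and the other 2 of each group on slide 2. Between 65.6% and 74.3% of the 58717 gene spots were well above background on an array, and no spot was saturated. Arrays of the same group correlated with r between 0.962 and 0.997, and arrays of different groups with r between 0.968 and 0.993. The 5 kidney markers checked (Umod, Slc34a1, Aqp2, Nphs1 and Slc12a3) were well above background on 9 of 9 arrays. With 5 and 4 arrays the precision is limited by their number. In RNA from whole tissue, fewer cells of a type and less RNA per cell cannot be told apart.

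The probes of Calb1, S100g, Trpv5 and Slc8a1 are given first, since these genes had the differences that were largest relative to their error among members that passed the filter, and 2 of them have probes in different parts of the transcript. All are 60 bases long, written 5′ to 3′ in lower case as on the array, with positions on the rat build rn4 as the files give them. The Calb1 probe lies on chr5:30475783-30475991, plus strand. Its 60 bases span 209 bases of genome, so it covers parts of more than 1 exon.
Calb1 A_44_P236255: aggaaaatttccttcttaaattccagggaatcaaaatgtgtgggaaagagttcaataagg
The S100g probe lies on chrX:52449257-52449316, plus strand, and starts at base 319 of the transcript.
S100g A_43_P11444: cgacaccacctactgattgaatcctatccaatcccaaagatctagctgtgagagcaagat
The Trpv5 probes lie on the minus strand of chromosome 4, A_64_P143825 at chr4:69363553-69363612 (transcript base 2277) and A_44_P228928 at chr4:69361523-69361582 (transcript base 4313), the latter nearer the 3′ end.
Trpv5 A_64_P143825: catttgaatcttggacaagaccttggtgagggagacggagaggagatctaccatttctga
Trpv5 A_44_P228928: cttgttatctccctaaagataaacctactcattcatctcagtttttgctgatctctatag
The Slc8a1 probes lie on the minus strand of chromosome 6, A_64_P008602 at chr6:4690405-4690464, A_44_P323285 at chr6:4465106-4469831 and A_64_P008607 at chr6:4421341-4421400, in the order of transcription. A_44_P323285 spans 4726 bases of genome and so crosses at least 1 intron, in a gene known for alternative splicing.
Slc8a1 A_64_P008602: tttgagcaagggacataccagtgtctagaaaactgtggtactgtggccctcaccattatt
Slc8a1 A_44_P323285: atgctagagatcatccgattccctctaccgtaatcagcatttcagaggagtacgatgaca
Slc8a1 A_64_P008607: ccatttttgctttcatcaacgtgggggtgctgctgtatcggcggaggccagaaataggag

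All levels below are log2 intensities after cyclic loess normalization, each difference is the mean of the MSC samples minus that of the NP samples on this scale, and its error is the standard error (SE) over the 5 NP and 4 MSC arrays. Levels of different probes are not compared, since probes differ in how brightly they bind. The largest difference among the members was that of Calb1, which was 2.18-fold higher in MSC samples. Trpv5 and 2 of the 3 Slc8a1 probes were higher by smaller amounts. S100g, the other calbindin, was lower. Atp2b1, Casr, Vdr and Kl had differences no larger than their SE or close to it.

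Trpv5, the main apical calcium channel of the kidney, had by probe A_64_P143825 levels of 8.69, 8.58, 8.43, 8.62 and 8.86 in NP 1 to NP 5 and of 9.25, 9.15, 8.81 and 8.99 in MSC 1 to MSC 4. Of the 4 MSC samples, 3 lay above every NP sample, and MSC 3 lay just below NP 5. The means were 8.64 ± 0.16 (SD, n = 5) and 9.05 ± 0.19 (SD, n = 4), a difference of 0.41 (SE 0.12), or 1.33-fold. The threshold of the filter was 8.71 to 8.77 on an array. All 4 MSC samples exceeded it but only NP 5 of the NP samples, so this probe passed only through the group where it was higher. The second probe, A_44_P228928, gave 8 to 8.11 in NP samples and 8.24 to 8.33 in MSC samples, with no overlap between the groups. Its difference was 0.24 (SE 0.03), but it was well above background on only 2 NP and 3 MSC arrays and did not pass the filter. Both probes were dim, and the size of their difference depended on the background: on the scanner's background-subtracted signal the differences were 1.06 and 1.47. They also differed between the slides, which held few arrays of each group: for A_64_P143825 the difference was 0.63 within slide 1 and 0.16 within slide 2. With slide as a block it was 0.42, and the part of the slide was not tested.

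Trpv6, the related apical channel best known from the intestine, was well above background on 1 array, MSC 3. Its probe A_44_P494274 read 7.96 to 8.10 in NP samples and 7.46 to 8.16 in MSC samples. No fold is given, since only a bound exists in the NP group.

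Calb1, the cytosolic calcium buffer of the distal convoluted and connecting tubule, had levels of 13.15, 12.51, 12.54, 12.94 and 12.77 in NP 1 to NP 5. In MSC 1 to MSC 4 they were 13.96, 13.93, 13.59 and 14.16. All 4 MSC samples lay above all NP samples. The means were 12.78 ± 0.27 (SD, n = 5) and 13.91 ± 0.24 (SD, n = 4), and the difference was 1.13 (SE 0.17). Of the 15841 probes that passed the filter, 14 had a larger difference. The difference was 1.21 within slide 1 and 1.02 within slide 2.

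S100g, the smaller calbindin, went the other way. Its levels were 12.90, 13.11, 12.96, 12.93 and 12.77 in NP 1 to NP 5 and 12.30, 12.65, 12.61 and 12.86 in MSC 1 to MSC 4. Of the 4 MSC samples, 3 lay below every NP sample, and MSC 4 lay within the NP range. The means were 12.94 ± 0.12 (SD, n = 5) and 12.60 ± 0.23 (SD, n = 4), a difference of -0.33 (SE 0.12), or 0.793-fold. It was -0.51 within slide 1 and -0.12 within slide 2. Taken within each array, the Calb1 level minus the S100g level was 1.46 (SE 0.21) higher in MSC samples, with all 4 MSC samples above all NP samples.

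Slc8a1, which encodes the basolateral exchanger NCX1, had by probe A_64_P008607 levels of 9.41, 9.11, 8.88, 9.14 and 9.13 in NP 1 to NP 5 and of 9.54, 9.76, 9.33 and 9.99 in MSC 1 to MSC 4. All MSC samples but MSC 3 lay above the NP range. The means were 9.13 ± 0.19 (SD, n = 5) and 9.65 ± 0.29 (SD, n = 4), a difference of 0.52 (SE 0.16), or 1.43-fold. Probe A_64_P008602, nearer the 5′ end of the gene, read 8.93, 9.26, 8.84, 9.17 and 9.20 in NP samples and 9.27, 9.77, 9.15 and 9.83 in MSC samples, a difference of 0.43 (SE 0.18). Again 3 MSC samples lay above every NP sample. The intron-crossing probe A_44_P323285, printed in 10 spots, read 8.24 to 8.92 in NP and 8.37 to 8.59 in MSC samples, and its difference was 0.01 (SE 0.14). The 3 probes of Slc8a1 thus disagreed, and the last did not pass the filter although it was well above background on every array. On the background-subtracted signal the differences were 0.95 for A_64_P008607, 0.79 for A_64_P008602 and 0.20 for A_44_P323285.

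**Figure D1:**
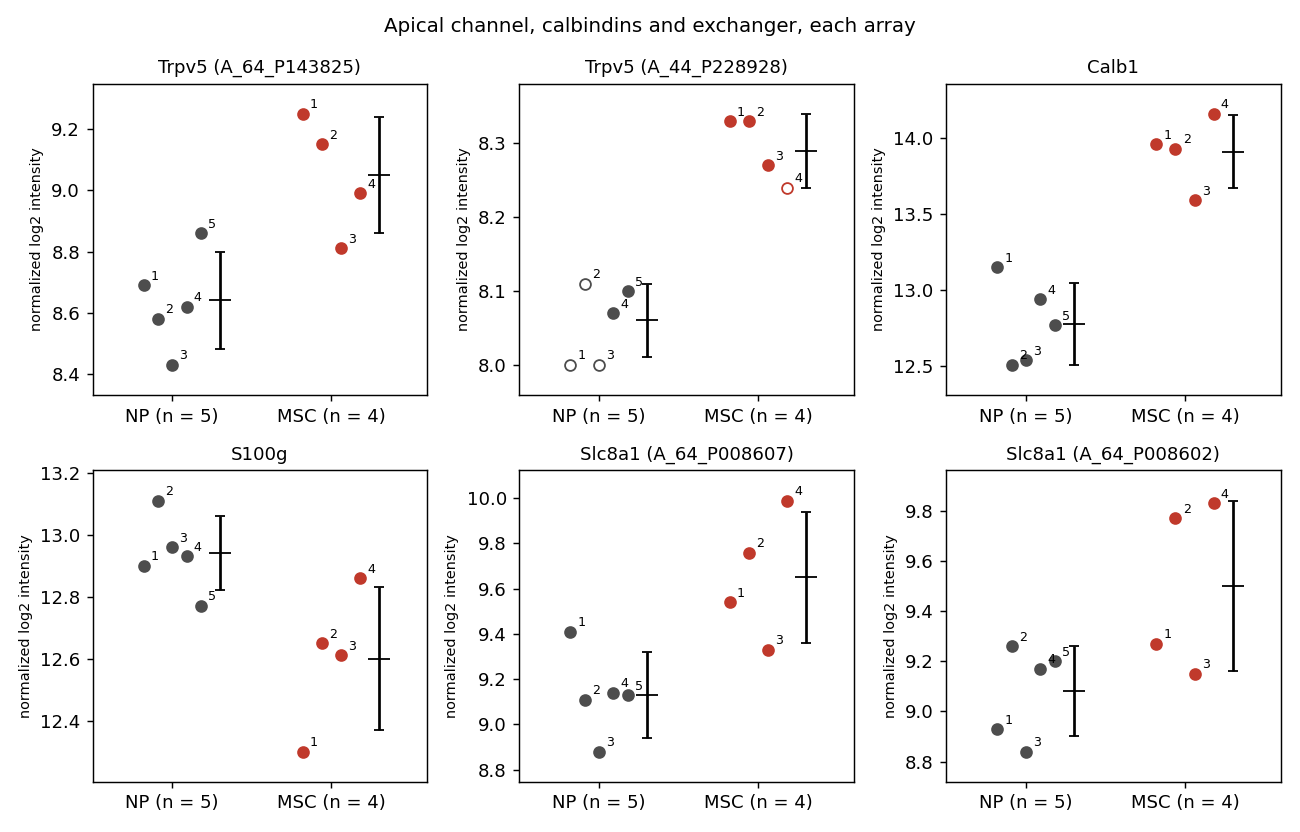
Normalized log2 intensity (vertical axis) of Trpv5, Calb1, S100g and Slc8a1 on each NP (grey, n = 5) and MSC array (red, n = 4), numbered by replicate, with group mean and SD as bars and open circles where the probe was not well above background. All 4 MSC samples of Calb1 lie above all NP samples, whereas 3 of the 4 MSC samples of S100g lie below all NP samples.

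Atp2b1, the calcium pump PMCA1 that most cells carry, was measured by 2 probes near the end of the transcript (chr7:36600220-36600279 and chr7:36600030-36600089, rn4, plus strand). Probe A_64_P012057 read 13.05, 14.47, 14.09, 13.82 and 13.92 in NP 1 to NP 5 and 13.56, 13.73, 13.60 and 13.73 in MSC 1 to MSC 4. The MSC samples lay inside the NP range, which NP 1 set at its lower end and NP 2 at its upper end. The difference was -0.22 (SE 0.27) by this probe and -0.25 (SE 0.24) by A_64_P036355. Without NP 2 the former was -0.07, and without NP 1 it was -0.42 (-0.45 by A_64_P036355). Atp2b4, encoding PMCA4, was not well above background on any array by either of its 2 probes, at chr13:46631595-46631654 and chr13:46635643-46635702, and no fold is given.

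Casr, the receptor that senses calcium outside the cell (chr11:66084185-66084244, rn4, minus strand), read 14.36, 14.16, 14.12, 14.68 and 14.64 in NP 1 to NP 5. It read 14.04, 14.11, 14.24 and 14.61 in MSC 1 to MSC 4. The groups overlapped, and in both groups the samples on slide 2 (NP 4, NP 5, MSC 3 and MSC 4) were higher than those on slide 1. The difference was -0.14 (SE 0.17), and with 1 array left out it ran from -0.26 (without MSC 4) to -0.07 (without NP 4 or MSC 1).

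Vdr, the receptor for active vitamin D (chr7:136567655-136567714, rn4, minus strand), read 10.31, 12.32, 11.22, 10.58 and 10.81 in NP 1 to NP 5 and 10.55, 10.98, 10.36 and 10.91 in MSC 1 to MSC 4. NP 2 stood highest, and the other NP and the MSC samples overlapped. The difference was -0.35 (SE 0.42), and -0.04 without NP 2 or -0.54 without NP 1. Kl, the gene for Klotho (chr12:3732717-3732776, rn4, minus strand), read 12.46, 13.55, 12.71, 13.01 and 12.89 in NP samples and 12.84, 13.03, 12.81 and 12.99 in MSC samples. NP 2 was again highest and NP 1 lowest, as for Atp2b1 and Vdr. The difference was -0.01 (SE 0.21), and 0.15 without NP 2 or -0.12 without NP 1. The SD of Vdr was 0.79 in NP and 0.30 in MSC samples, and that of Kl 0.41 and 0.11.

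**Figure D2:**
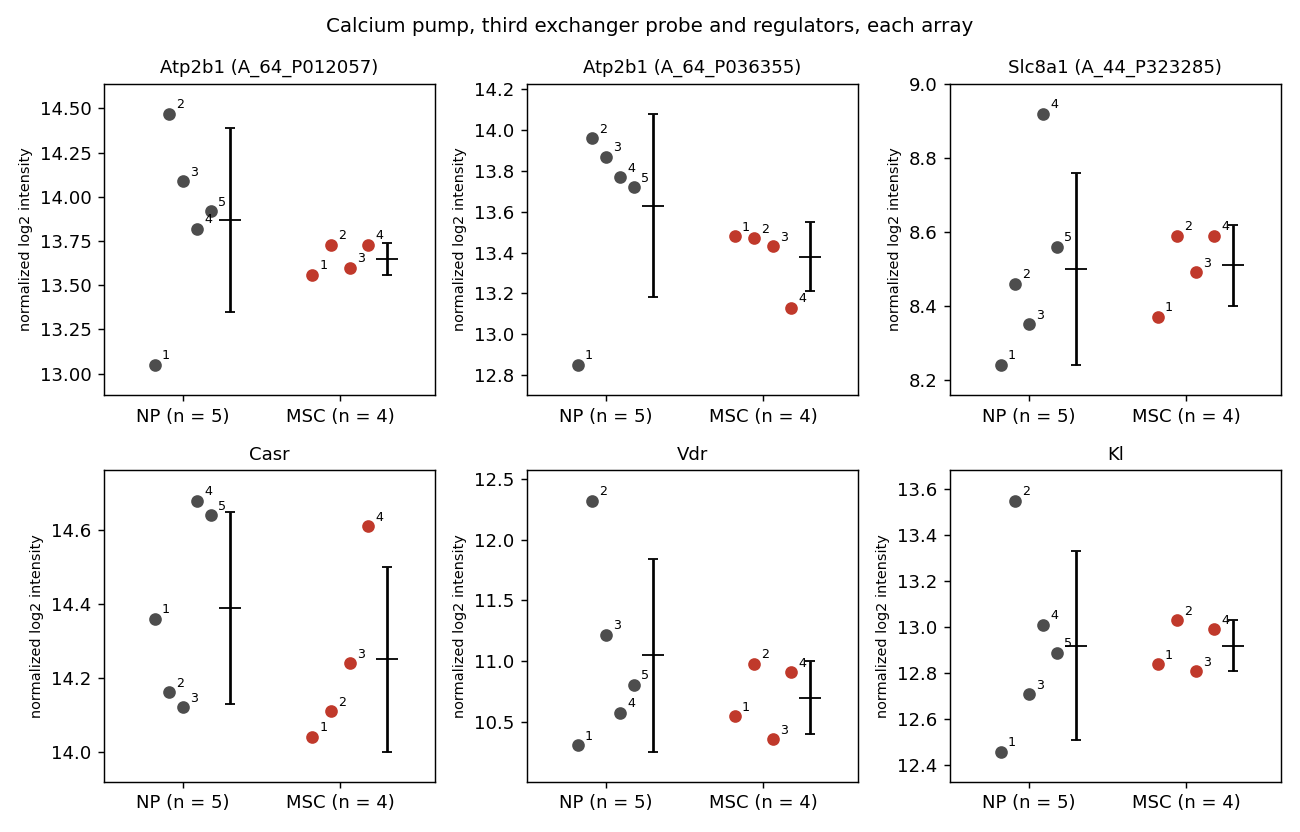
Normalized log2 intensity (vertical axis) of both Atp2b1 probes, the intron-crossing Slc8a1 probe, Casr, Vdr and Kl on each NP (grey, n = 5) and MSC array (red, n = 4), numbered by replicate, with group mean and SD as bars. NP 1 is lowest and NP 2 highest in the NP group for Atp2b1, Vdr and Kl, and the groups overlap in every panel.

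Of the 8 members that passed the filter, 3 were higher in MSC samples (Calb1, Slc8a1 and Trpv5) and 5 lower (S100g, Atp2b1, Casr, Vdr and Kl), taking for each gene its most variable probe. Trpv5 passed only through its MSC samples. For the 8 members as a set no test was made. The median difference of the 8 members was -0.07, beside -0.01 over all 13935 genes tested. Groups did not overlap for 1 member that was higher, Calb1, and for none that was lower, where over all genes the shares were 3.16% (higher) and 2.12% (lower). At a false discovery rate under 0.05 with a fold over 1.5 by limma, 0% of genes were called higher and 0% lower, members included. The study itself reported Tmem52b and Calb1 as higher at these thresholds, which was not reproduced here. By RT-PCR against kidneys perfused with Belzer solution alone, it found Calb1 raised with vesicles released by MSC, but not with MSC. Such kidneys were not on these arrays. The background at an unadjusted p under 0.05 was 6.57% higher and 5.1% lower. Since the members were selected on this contrast, nothing is read from these counts.

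**Figure D3:**
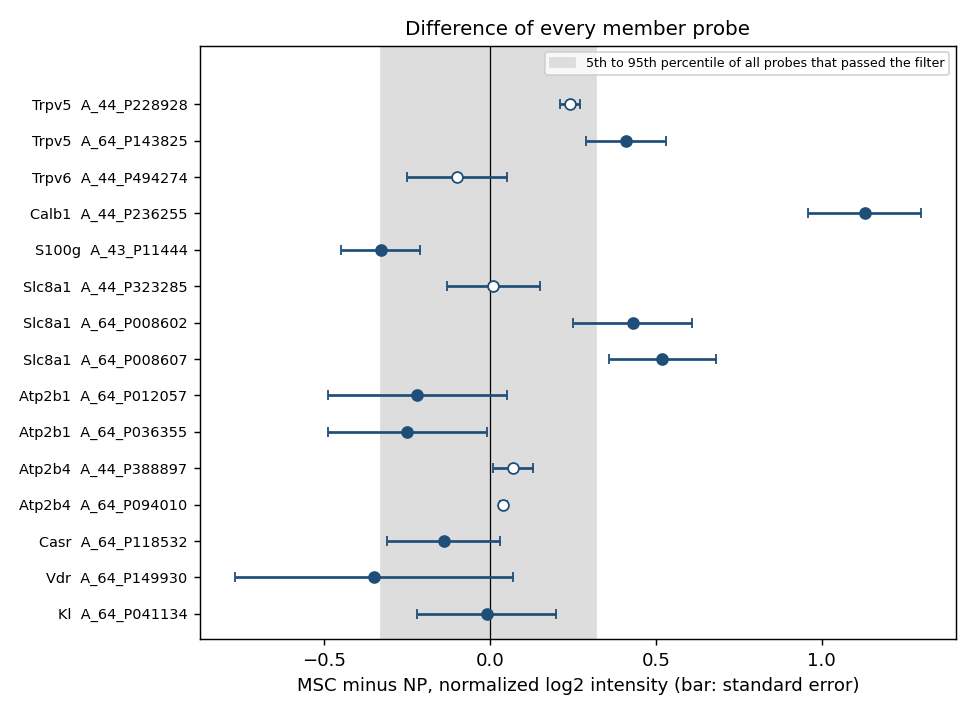
MSC minus NP difference in normalized log2 intensity (horizontal axis, points) with its SE (bars) for all 15 member probes, filled where the probe passed the filter and open where it did not, over a grey band from the 5th to the 95th percentile of the 15841 probes that passed (-0.33 to 0.32). Calb1 (1.13), Trpv5 A_64_P143825 (0.41) and Slc8a1 A_64_P008607 (0.52) and A_64_P008602 (0.43) lie above the band, and Vdr (-0.35) and S100g (-0.33) lie at or just past its lower end.

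The members also varied from kidney to kidney within a group. Values were centred on their group mean, which takes the MSC against NP difference out, and Pearson's r was taken over the 9 arrays. These arrays share slides and one normalization, so r is a description, with no p. Calb1 and Slc8a1 varied together by the probe A_64_P008607 (r = 0.84, and 0.76 to 0.92 with any 1 array left out), the buffer and the exchanger of the same cells. By the probe A_64_P008602 r was 0.32, so this likeness rested on 1 of the Slc8a1 probes. Of the 13934 other genes, 77 had a higher r with Calb1 than Slc8a1 did. The 5 highest were Lrrc24 (0.968), Mecom (0.953), Lrba (0.95), Acot3 (0.948) and Pfkm (0.93). Calb1 and Trpv5 had r = 0.49, which was 0.24 without MSC 3. The 2 calbindins did not vary together (r = -0.06, and -0.47 to 0.16 with 1 array left out).

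Atp2b1, Vdr and Kl formed the other set that varied together. By the probe A_64_P012057, Atp2b1 had r = 0.86 with Vdr (0.78 to 0.98 with 1 array left out) and r = 0.83 with Kl (0.71 to 0.96). By A_64_P036355 they were lower, 0.58 with Vdr (0.35 to 0.67) and 0.64 with Kl (0.23 to 0.79). Vdr and Kl had r = 0.84 (0.44 to 0.93). The pump went against Calb1, with r = -0.69 by A_64_P012057 (-0.86 to -0.42 with 1 array left out) and -0.76 by A_64_P036355 (-0.87 to -0.69). NP 1, with the highest Calb1 and the lowest Atp2b1, Vdr and Kl of the NP group, and NP 2, with the lowest Calb1 and the highest of these 3, were at the ends of this pattern. The score of 5 smooth muscle and pericyte genes, the mean of their centred levels, was 0.85 in NP 2 and -0.47 in NP 1, its highest and lowest arrays. Other marker lists given below also had NP 2 and NP 1 at the ends of the NP group. Stromal cell scores were 0.34 in NP 2 and -0.47 in NP 1, and endothelial scores 0.24 and -0.39. The order was reversed for intercalated (-0.68 and 0.19), principal (-0.51 and 0.09) and distal markers (-0.55 and 0.07, Tmem52b included). The part of these cell types in the pattern was not tested.

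**Figure D4:**
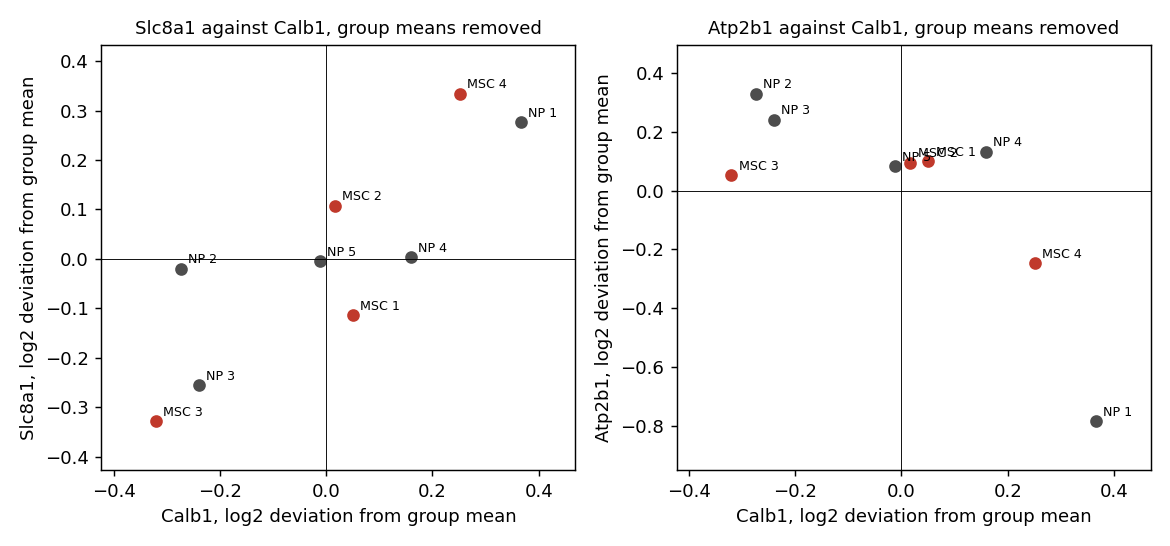
Deviation from the group mean in log2 intensity of Slc8a1 (probe A_64_P008607, left vertical axis) and Atp2b1 (probe A_64_P036355, right vertical axis) against that of Calb1 (horizontal axes), with each NP (grey) and MSC (red) array labelled. Slc8a1 followed Calb1 (r = 0.84), and Atp2b1 went against it (r = -0.76), with NP 1 far below the other arrays.

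Markers of the cells that carry this route were examined beside Calb1. Of 14 genes of the distal convoluted and connecting tubule, 11 passed the filter (Pvalb and Kcnj10 did not, and no probe had the symbol Klhl3) and these 11 were well above background on all arrays. In MSC samples 10 of the 11 were higher, with a list median of 0.59. By limma 6 of these had an unadjusted p under 0.05, beside 6.57% of all genes, and none passed an FDR under 0.05 with the fold. Groups did not overlap for 5 of them, beside 3.16% of all genes: Egf (1.37), Scnn1b (0.97), Tmem52b (0.86), Scnn1g (0.61) and Kcnj16 (0.31), each an MSC minus NP difference. Leaving out Tmem52b, which the study picked on these arrays, the median of the other 10 was 0.45, and their score was -0.55 to 0.10 in NP and 0.20 to 0.33 in MSC samples. Within an array, Calb1 minus this score, with Calb1 centred on its mean over the 9 arrays, was -0.53 to -0.22 in NP and 0.10 to 0.55 in MSC samples, a difference of 0.67 (SE 0.11). Since Calb1 was selected on this contrast, nothing is read from this difference. Single markers ranged from -0.04 (Fxyd2) to 1.37 (Egf), and the part of the distal markers in the Calb1 and S100g values was not tested.

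**Figure D5:**
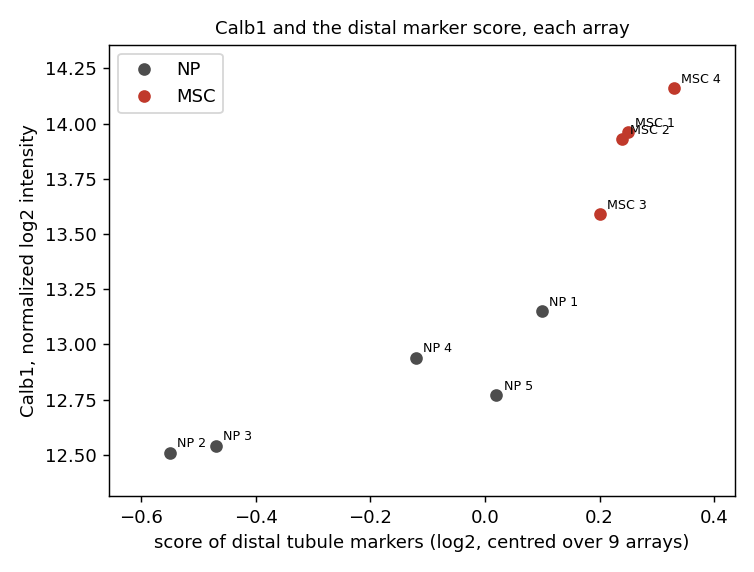
Normalized log2 intensity of Calb1 (vertical axis) against the score of 10 distal tubule markers without Tmem52b (horizontal axis, mean log2 level centred over 9 arrays), with each NP (grey, n = 5) and MSC (red, n = 4) array labelled. MSC samples lie above NP samples on both axes, at scores of 0.20 to 0.33 against -0.55 to 0.10.

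The distal list was not alone in this. All 8 intercalated cell markers were higher in MSC samples (median 0.58), and their score was -0.68 to 0.19 in NP and 0.15 to 0.47 in MSC samples. By limma 5 of them had an unadjusted p under 0.05, beside 6.57% of all genes. For 3 the groups did not overlap, beside 3.16% of all genes. Of 8 thick ascending limb markers 7 were higher (median 0.30, scores of -0.24 to 0.08 and -0.03 to 0.50). Of 6 principal cell markers 5 were higher (median 0.24, scores of -0.51 to 0.09 and -0.17 to 0.45), and of 10 proximal tubule markers 7 were (median 0.16, scores of -0.36 to 0.10 and -0.02 to 0.15). Outside the tubule, 0 of 4 podocyte markers were higher (median -0.30, scores of -0.34 to 0.39 in NP and -0.87 to 0.22 in MSC samples), 3 of 5 endothelial (0.08, -0.39 to 0.24 and -0.17 to 0.26) and 0 of 5 smooth muscle (-0.09, -0.47 to 0.85 and -0.34 to 0.33). All 6 macrophage markers were higher (0.26, -0.57 to 0.19 and -0.09 to 0.44), and 3 of 4 stromal cell markers were (0.06, -0.47 to 0.34 and -0.15 to 0.20). Red cell markers (3 genes, median -1.68) had scores of -0.01 to 0.93 in NP and -2.08 to 0.36 in MSC samples, and fat markers (5 genes, median 1.43) stood at -1.21, -0.09, 2.58 and 1.71 in MSC 1 to MSC 4 and at -1.26 to 0.14 in NP samples, so that MSC 1 and MSC 2 lay inside the NP range. At the same unadjusted p by limma, 3 thick ascending limb, 2 principal cell, 2 proximal tubule and 2 fat markers were also higher. Of the red cell markers 2 were lower, beside 5.1% of all genes. The other lists of this paragraph had none past it. Apart from the intercalated list, groups in these lists did not overlap for 1 proximal tubule marker only. The part of these cell types in the members' values was not tested. Without MSC 3 and MSC 4, the 2 arrays high in fat markers, an alternative chosen after seeing the data, the Calb1 difference was 1.16.

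The rest of the calcium pathway was taken as 6 lists with 94 genes, of which 79 passed the filter. Of the 79, 49 were higher and 30 lower in MSC samples, with a median of 0.09 beside -0.01 over all genes. None was called at an FDR under 0.05 with the fold. At an unadjusted p under 0.05 by limma, 15 were higher and 3 lower, where over all genes the shares were 6.57% and 5.1%. The counts past the unadjusted p in each list below, higher and then lower, stand beside these same shares, and lists of this size hold few genes.

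The list of regulators and partners of TRPV5 and TRPV6 had 15 of 15 genes tested, 12 higher and 3 lower (median 0.13), with 2 and 0 past the unadjusted p. Klk1, tissue kallikrein of the connecting tubule, known to keep TRPV5 at the membrane, had the largest difference, 0.67 (SE 0.37). It read 15.15 to 16.82 in NP and 16.59 to 16.74 in MSC samples, so that all MSC samples lay inside the NP range. St6gal1, a sialyltransferase, had the lowest, -0.32 (SE 0.21). Umod (0.15, SE 0.21) and Wnk4 (0.03, SE 0.07) lay between. Umod encodes uromodulin and Wnk4 a kinase of distal salt transport.

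The list of vitamin D, parathyroid hormone and FGF23 signalling had 19 of 21 genes tested (Pth and Fgf23 did not pass the filter), 11 higher and 8 lower (median 0.05), with 1 and 0 past the unadjusted p. Cyp24a1, the enzyme that breaks down active vitamin D and a standard target of its receptor, was at the top of the list with 0.46 (SE 0.28). It read 10.57 to 11.78 in NP and 11.33 to 11.98 in MSC samples, and the groups overlapped. Cyp27b1, which makes active vitamin D, differed by -0.05 (SE 0.15), the retinoid partner receptor Rxra by -0.17 (SE 0.17), its relative Rxrg, the list's 1 gene past the unadjusted p, by 0.27 (SE 0.11) and the parathyroid hormone receptor Pth1r by 0.20 (SE 0.16). Pthlh, the related hormone, was lowest at -0.28 (SE 0.15).

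On the paracellular route, by which calcium passes between the cells of the thick ascending limb, 11 of 11 genes were tested, 8 higher and 3 lower (median 0.21), with 3 and 0 past the unadjusted p. Cldn16, the claudin of calcium and magnesium passage, was lowest at -0.33 (SE 0.17).

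Outside the transepithelial route, 16 of 21 genes of calcium stores and store-operated entry were tested, 10 higher and 6 lower (median 0.12), with 5 and 1 past the unadjusted p. Atp2c1, a calcium pump of the Golgi, read 10.22 to 10.73 in NP and 10.88 to 11.15 in MSC samples, a difference of 0.45 (SE 0.11). Its groups did not overlap, where the share over all genes was 3.16%. Among the other pathway lists the same held for 1 partner of TRPV5 and TRPV6 and for 2 of the EF-hand genes below. Atp2a2, the pump SERCA2, differed by -0.04 (SE 0.10). Only 4 of 10 other exchangers and pumps were tested, 3 higher and 1 lower (median 0.15), with 1 and 1 past the unadjusted p, between Slc24a5 at 0.25 (SE 0.12) and the pump Atp2b3 at -0.41 (SE 0.15). Slc8b1 is on the array under its older symbol Slc24a6 (0.20, SE 0.08).

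Among other EF-hand calcium-binding proteins, the wider group to which calbindins belong, 14 of 16 were tested, 5 higher and 9 lower (median -0.05), with 3 and 1 past the unadjusted p. S100b had the largest difference, 1.05 (SE 0.51), with 8.04 to 8.81 in NP samples and 8.19, 9.33, 10.88 and 9.22 in MSC 1 to MSC 4. S100b is expressed in fat as well as in glia, and MSC 3, its highest array, was also the highest in the fat markers, whose part was not tested. S100a13 was lowest at -0.25 (SE 0.09). Calb2, encoding calretinin, and Pvalb, encoding parvalbumin, did not pass the filter.

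Promoter windows of 300 bases around the start of 8 members in RefSeq (GRCr8) were searched on both strands for 4 hexamers of nuclear receptor half-sites, for TATAAA and for the vitamin D receptor DR3 element. Trpv5 is shown as the apical channel that passed the filter. Its window, chr4:71529333-71529632 on the minus strand, holds GGGTCA once, on the opposite strand of the window, from position -165 relative to the start (capitals).
Trpv5 promoter: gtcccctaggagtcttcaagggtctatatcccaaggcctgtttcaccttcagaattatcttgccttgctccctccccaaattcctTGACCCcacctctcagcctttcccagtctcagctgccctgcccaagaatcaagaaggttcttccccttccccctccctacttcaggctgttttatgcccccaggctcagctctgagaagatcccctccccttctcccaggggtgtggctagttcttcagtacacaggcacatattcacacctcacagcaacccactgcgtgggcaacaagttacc
GGGTCA was in 13.8% of 33469 such windows. AGGTCA, in 16.2%, was found for Trpv6 and Casr, and GGTTCA, in 11.7%, for Vdr. AGTTCA (14.5%) and TATAAA (14.2%) were found for 0 of the 8, and the DR3 element (1.81%) for 0 of the 8. Windows of Calb1 and S100g were not used here.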

How the data were processed

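Total RNA of 9 rat kidneys was labelled with Cy3 and hybridised to Agilent arrays. The deposited scanner files (Agilent Feature Extraction 10.7.3.1) hold linear mean spot intensity with no normalization, and the authors also deposited normalized log2 values. The log2 values computed here correlated with these at r between 0.99987 and 0.99997 per array. Probe positions are on rn4, per the file headers.

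Mean intensities were taken to log2 and normalized by cyclic loess, with no background subtraction, after the methods of the study (limma 3.58.1, R 4.3.3). Outlier spots and controls were left out. A probe was kept if it exceeded 1.1 times the 95th percentile of the log2 negative controls on at least 4 arrays, which is 1 reading of the filter in the methods and decides which member probes failed, and each gene took its most variable probe. Genes were tested with limma over 5 NP and 4 MSC arrays, with Benjamini-Hochberg adjustment over 13935 genes, and the script was tested on simulated data. The p-values set the MSC minus NP difference against the spread between these samples, which limma moderates across genes. Every probe of the members is described. In each pathway list the genes with the highest and lowest difference and a fixed set of further genes were named. The 5 genes most like Calb1 within groups were named, and marker lists were given by count, median and range. Members and lists were chosen with earlier results of these data known. Egf, Kcnj16, Scnn1b, Scnn1g, Tmem52b, Fxyd2, Rxrg and Slc24a6 were named after their values were seen. Some genes that this rule selects are not reported here. The 1 MSC array the study discarded was not analysed here. No per-sample column was left unmapped.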

Additional observations from a re-analysis of the deposited data

Results flagged for a closer look

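Of 25 groups of member probe values, 3 held an array whose gap to its nearest neighbour was a large share of the group's range by Dixon's criterion, where chance gives 1.2. For Trpv6, MSC 4 was the lowest of the MSC samples, with a gap of 0.857 of the range, at levels that were not well above background. For the Atp2b1 probe A_64_P036355, NP 1 was the lowest of the NP samples (0.778 of the range, 12.85 against 13.72 to 13.96) and MSC 4 the lowest of the MSC samples (0.865 of the range, 13.13 against 13.43 to 13.48). The other Atp2b1 probe, A_64_P012057, had NP 1 lowest at 13.05 but MSC 4 at 13.73, the highest MSC level.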

How the results depend on the processing

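The Calb1 difference kept its direction under all 22 alternatives, from 1.02 within slide 2 to 1.24 without MSC 3. Leaving out each array in turn gave 1.04 to 1.24. The genes called at an FDR under 0.05 with the fold by limma were 0 in each direction. With array weights, 2 were higher, Calb1 and Tmem52b. At an unadjusted p under 0.05 with the fold, 93 genes were higher and 80 lower, with 2 of the pathway lists, S100b among them. Only the exclusions of array pairs were chosen after seeing the data: without MSC 3 and MSC 4, which were high in fat markers, the Calb1 difference was 1.16, and without NP 1 and MSC 4 it was 1.13. Of 330 alternative values of the member probes, 315 moved by less than the spread between replicates and 15 moved by more, among them Trpv5, Slc8a1, S100g and Atp2b4 values under background subtraction or within a slide. The direction of dim or near-zero differences was not kept everywhere: 17 of 22 alternatives kept it for Trpv6, 10 of 22 for Slc8a1 A_44_P323285, 13 of 22 for Kl and 21 of 22 for Atp2b4 A_44_P388897. With quantile normalization the within-group r of Calb1 was 0.87 with Slc8a1 and 0.67 with Trpv5. Same-numbered samples of the groups had deviations that correlated at 0.20, 0.33, -0.35 and 0.05. The highest values with another number were 0.18, 0.24, 0.29 and 0.31, so not every sample correlated best with its own number. The numbers were not taken as pairs, but so few values cannot exclude pairing. With the replicate block the Calb1 difference was 1.12, and the count of called genes was 0 in each direction. Signal over background limits Trpv5, Trpv6, Slc8a1 and Atp2b4, whose probes were dim, and the cause of their moves was not tested.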
